A study of Homo sapiens with 15 samples.

Results

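The FGF ligands and receptors described here were 10 genes, of 16382 genes listed for MRC5 cells and 16076 listed for H196 cells. They were the 6 ligand genes FGF1, FGF2, FGF5, FGF7, FGF11 and FGF17 and the 4 receptor genes FGFR1, FGFR3, FGFR4 and FGFRL1, taken by gene symbol, and all 10 were present in both tables. MRC5 is a human lung fibroblast line, used here in place of cancer-associated fibroblasts (CAFs). H196 is a non-neuroendocrine (non-NE) small cell lung cancer (SCLC) line and H69 a neuroendocrine (NE) one. The 15 RNA-seq libraries fell into 5 groups of 3. MRC5_Mo and H196_Mo cells were kept without a partner. MRC5_CoH69 and MRC5_CoH196 were MRC5 cells whose partner was the H69 or the H196 line, and H196_Co were H196 cells whose partner was MRC5. The labels name no transgene or drug in any group, and cells were collected after 7 days. In co-culture the partner cells sat on an insert whose membrane had 0.4 micrometre pores, so that medium but not the cell layers was shared, and RNA was taken from the cells in the well. The SCLC lines and MRC5 cells were kept in different media, and the medium of the co-cultures was not stated. An effect of the medium cannot be told apart from one of the partner cells. Each kind of cell was represented by 1 line, H69 cells were not sequenced, and the libraries of a group were called parallel replicates, so p-values measure the spread between these libraries.

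Fibroblast growth factors are signal proteins that bind receptor tyrosine kinases on the surface of the cell that makes them or of its neighbours. A bound receptor passes the signal through the adaptor FRS2 to RAS, RAF, MEK and ERK, and ERK in turn switches on genes such as DUSP6 and the Sprouty genes that damp the pathway. In tumours, fibroblasts are a known source of FGFs, and FGFR1 is the receptor most often discussed in SCLC. The study asked whether FGFs of fibroblasts had a part in the glycolysis of SCLC cells, which the RNA levels of these genes do not measure. The comparisons here set the ligand genes of each partner beside the receptor genes of the other.

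FGF5 and FGF11 are the ligand genes on which the MRC5 results turn, and the sequences that bear on their measurement and start sites are shown first. The study measured FGF5 by qPCR with the primers below, written from the 5′ end. Both primer sites were found in 3 of 5 FGF5 transcripts of GENCODE release 29.
FGF5 forward primer: cactgataggaaccctagaggc
FGF5 reverse primer: cagatggaaaccgatgccc
The stretches from 250 to 26 bases before the first RefSeq start of both genes (GRCh38.p14) follow, since these 2 ligand genes were the ones that rose by the most in MRC5 cells grown with H196 cells among the ligands tested. Capitals mark ACGTG and GCGTG on either strand (CACGT and CACGC on the reverse one, of which CACGT, like ACGTG, lies within the E-box CACGTG). These short cores are part of the element that hypoxia-inducible factors bind.
FGF11, chr17:7438048-7438272, plus strand: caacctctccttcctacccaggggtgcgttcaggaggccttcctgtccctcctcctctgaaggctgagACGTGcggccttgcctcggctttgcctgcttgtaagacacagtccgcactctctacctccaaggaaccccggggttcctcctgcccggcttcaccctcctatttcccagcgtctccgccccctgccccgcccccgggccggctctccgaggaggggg
FGF5, chr4:80266338-80266562, plus strand: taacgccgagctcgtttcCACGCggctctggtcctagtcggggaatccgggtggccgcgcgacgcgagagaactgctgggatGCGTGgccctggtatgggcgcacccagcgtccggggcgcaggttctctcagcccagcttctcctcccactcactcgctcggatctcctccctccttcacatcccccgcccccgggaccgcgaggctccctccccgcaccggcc
Of 35116 such windows of 225 bases, 39.9% held at least 1 of these cores, as did 9 of the 15 windows listed for 8 of the members. FGF11 had 1 match and FGF5 had 2 in the windows shown, which were 66.7% and 70.2% G or C. Matches were also found for FGF2, FGFR3, FGFR4 and FGF1, which fell in MRC5_CoH196, while FGF7 and FGFRL1 had none. A match is a description of the letters, and binding was not measured.

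Library totals ran from 18476890 to 19170560 counts in MRC5 cells and from 16073597 to 17358349 in H196 cells. Levels are given as FPKM, read fragments scaled by transcript length and by library size, which can be compared between genes within a library. Fold changes are log2 values from edgeR's quasi-likelihood test on counts, with TMM scaling across libraries, and rose or fell means a Benjamini-Hochberg adjusted p under 0.05 over all genes tested. A gene is called a differentially expressed gene (DEG) here where it passed with an absolute log2 fold change above 0.58, a limit taken from 1 comparison of gene lists in the study. TMM scaling and FPKM differ here: with library totals in place of TMM factors the log2 fold changes of all tested genes had a median of -0.18 in MRC5_CoH196 against MRC5_Mo, -0.17 against MRC5_CoH69 and -0.08 in H196_Co against H196_Mo. FPKM carries that shift too, so its ratios sit lower than the log2 fold changes given beside them. Fibroblast marker genes summed to 2638 to 6201 FPKM in MRC5 libraries, and in H196 libraries 8 of the 9 that were listed stayed under 1 FPKM. The 6 epithelial markers summed to 107 to 145 FPKM in MRC5 libraries and 179 to 233 FPKM in H196 libraries. Most of that was keratin, with KRT18 at 51.6 to 105 FPKM in MRC5 cells and 157 to 203 FPKM in H196 cells, whereas EPCAM and CDH1 were at most 0.38 FPKM in every library. Among NE markers NCAM1 was at most 0.01 FPKM in H196 cells, yet CHGB, a granule protein, was 17.5 to 20.0 FPKM and SYP 7.61 to 8.96 FPKM, so the NE marker list was not absent from this non-NE line.

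Positions are those of the tables, on GRCh38.p13. FGF1 (gene 2246) lies on chromosome 5 from 142581848 to 142698070, FGF2 (2247) on chromosome 4 from 122826708 to 122898236, FGF5 (2250) on chromosome 4 from 80266588 to 80291017, and FGF7 (2252) on chromosome 15 from 49423237 to 49488775. FGF17 (8822) lies on chromosome 8 from 22039501 to 22048809, while FGF11 (2256) was listed on a contig outside the main chromosomes and is given no position from the tables. FGFR1 (2260) lies on chromosome 8 from 38411143 to 38468635, FGFR3 (2261) on chromosome 4 from 1793293 to 1808872, FGFR4 (2264) on chromosome 5 from 177086915 to 177098144, and FGFRL1 (53834) on chromosome 4 from 1009930 to 1026898. The values are sums over each gene and do not separate exons or isoforms.

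In MRC5 cells grown with H196 cells, 4 of the ligand genes and receptors were DEGs: FGF11, FGFR1 and FGFR4 rose and FGF1 fell. Of the 9 members tested, 6 rose, 2 fell and FGFRL1 did not pass, against MRC5_Mo. Among all 12819 genes tested 74.3% passed, 37.2% higher and 37.1% lower, and 31.9% were DEGs, so the share of members that passed was near the background. With library totals in place of TMM 4 members were higher and 3 lower, and over all genes 3467 were higher and 6295 lower, where TMM gave 4765 and 4757. The median log2 fold change of the members was 0.45 and that of all genes was near 0.

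FGF5, a secreted ligand that signals through FGFR1 and FGFR2, was the ligand gene with the highest FPKM in every MRC5 library. Its level was 50.5, 57.7 and 55.9 FPKM in the MRC5_Mo libraries, 45.3, 46.0 and 43.8 FPKM in MRC5_CoH69 and 65.6, 72.3 and 69.9 FPKM in MRC5_CoH196. The groups did not overlap, with MRC5_CoH69 lowest and MRC5_CoH196 highest. Against MRC5_Mo the log2 fold change was 0.51 with H196 cells (SE 0.05, adjusted p = 6.14e-10) and -0.27 with H69 cells (SE 0.05, adjusted p = 0.000964). The co-cultures differed by 0.78 on the log2 scale (SE 0.05, adjusted p = 3.2e-13), above the limit for a DEG, whereas each was below it against MRC5_Mo. With library totals the rise with H196 cells was 0.34 and still passed (adjusted p = 4.66e-07).

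FGF11, which belongs to the FGFs that stay inside the cell and bind sodium channels instead of FGF receptors, changed by the largest factor of the members tested. It was near the floor in MRC5_Mo libraries, at 0.46, 0.42 and 0.38 FPKM from 16 to 18 counts. It reached 4.24, 4.44 and 5.12 FPKM in MRC5_CoH196, from 180 to 220 counts, and no library of that group came near the others. The increase was 12.4-fold (log2 fold change 3.63, SE 0.16, adjusted p = 2.93e-16). In MRC5_CoH69 the libraries were at 0.60, 0.61 and 0.68 FPKM, above every MRC5_Mo library, with a log2 fold change of 0.59 that did not pass (SE 0.24, adjusted p = 0.147). FGF11 was also the ligand gene with the highest FPKM in H196 cells, where H196_Mo libraries held 17.9 ± 1.28 FPKM (SD, n = 3). CHGB, which H196_Mo cells carried at 18.97 ± 1.01 FPKM (SD, n = 3), was 0.07 to 0.12 FPKM in MRC5_CoH196 and 0.05 to 0.15 FPKM in MRC5_Mo libraries. Whether RNA of H196 cells reached the MRC5 libraries was not tested.

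FGF1 and FGF7 moved the other way in the same cells. FGF1, a ligand of all FGF receptors that lacks a classical signal peptide, was 4.31, 4.20 and 4.32 FPKM in MRC5_Mo, 3.81, 4.49 and 3.96 FPKM in MRC5_CoH69 and 2.37, 2.71 and 2.38 FPKM in MRC5_CoH196. The MRC5_CoH196 libraries were the 3 lowest, and the other groups overlapped. FGF1 fell by 0.60 on the log2 scale against MRC5_Mo (SE 0.09, adjusted p = 1.57e-06) and by 0.55 against MRC5_CoH69 (SE 0.09, adjusted p = 6.7e-06). FGF7, the keratinocyte growth factor, which stromal cells make and which acts on an epithelial form of FGFR2, was 16.1, 14.5 and 13.3 FPKM in MRC5_Mo, 14.7, 13.6 and 15.03 FPKM in MRC5_CoH69 and 8.79, 10.9 and 9.13 FPKM in MRC5_CoH196. Again only the libraries grown with H196 cells stood below the rest. FGF7 fell by 0.44 against MRC5_Mo (SE 0.07, adjusted p = 2.8e-06) and by 0.43 against MRC5_CoH69 (SE 0.07, adjusted p = 3.91e-06). With H69 cells the log2 fold changes against MRC5_Mo were -0.05 for FGF1 (adjusted p = 0.798) and -0.01 for FGF7 (adjusted p = 0.973).

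FGF2, the basic FGF that cells release without a signal peptide, differed little between groups. Its level was 13.7, 14.1 and 13.2 FPKM in MRC5_Mo, 14.98, 14.8 and 16.3 FPKM in MRC5_CoH69 and 13.1, 15.6 and 13.9 FPKM in MRC5_CoH196. The MRC5_CoH69 libraries were all above MRC5_Mo, and the MRC5_CoH196 libraries spanned both. With TMM scaling FGF2 passed in both co-cultures, with log2 fold changes of 0.23 with H196 cells (SE 0.05, adjusted p = 0.000406) and 0.18 with H69 cells (SE 0.05, adjusted p = 0.0401). Neither held with library totals, which gave 0.05 (adjusted p = 0.382) and 0.16 (adjusted p = 0.0789). The call with H69 cells was also lost when any 1 of the 6 MRC5_Mo and MRC5_CoH69 libraries was left out (adjusted p = 0.0591 to 0.201). The co-cultures differed by 0.05 (SE 0.05, adjusted p = 0.387).

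FGF17, a secreted ligand of the FGF8 subfamily, was too low for the count filter in both tables. MRC5_Mo libraries held 2 to 5 counts, MRC5_CoH69 libraries 4 to 5 and MRC5_CoH196 libraries 10 to 18. In FPKM these were 0.10, 0.10 and 0.11, then 0.08, 0.15 and 0.12, then 0.25, 0.52 and 0.41, and the last group lay above the other two. CPM, counts scaled to the library size, were 0.8004 ± 0.234 in MRC5_CoH196 and 0.171 ± 0.0797 in MRC5_Mo (SD, n = 3), a ratio of 4.68 with a 95% counting interval of 2.31 to 10.5 from 42 and 10 counts. An exact permutation test of the 3 against 3 CPM values, two-sided, gave p = 0.1, the smallest this design allows. Without the filter on low counts, edgeR gave a log2 fold change of 2.18 (SE 0.49, adjusted p = 0.000139). With H69 cells the CPM ratio was 1.31, with an interval of 0.529 to 3.33, and no difference was detectable at this depth. In H196 cells FGF17 had 3 to 5 counts in every library, 12 counts in each group.

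**Figure D1:**
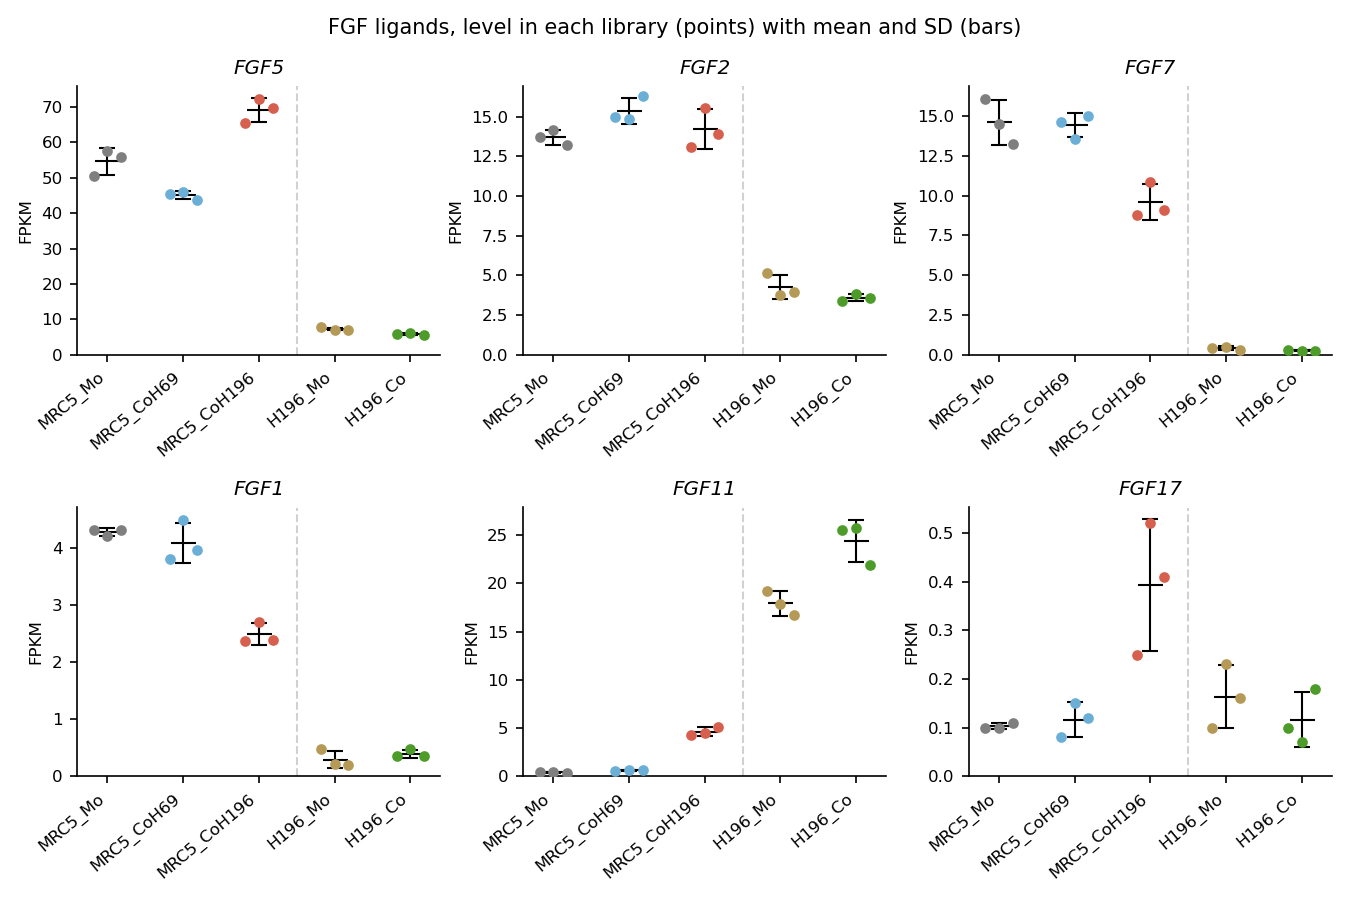
FPKM of the 6 FGF ligand genes in each library (points, 3 per group) with the group mean and SD (black bars); each panel has its own linear axis from 0, and a dashed line parts MRC5 from H196 libraries. FGF5 was highest in MRC5_CoH196 (65.6 to 72.3 FPKM), FGF1 and FGF7 were lowest there among MRC5 groups, and FGF11 was higher in both H196 groups than in any MRC5 group.

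The receptor genes of MRC5 cells were led by FGFR1, the receptor kinase that FGF5, FGF2 and FGF1 share. FGFR1 was 58.4, 60.0 and 59.4 FPKM in MRC5_Mo, 56.0, 56.5 and 54.0 FPKM in MRC5_CoH69 and 78.9, 73.6 and 77.9 FPKM in MRC5_CoH196. The MRC5_CoH196 libraries lay above all others, and the MRC5_CoH69 libraries lay just under MRC5_Mo. FGFR1 rose by 1.51-fold with H196 cells (log2 fold change 0.59, SE 0.04, adjusted p = 3.91e-12), and with library totals the log2 fold change was 0.42 (adjusted p = 5.54e-10). With H69 cells it was -0.06 (SE 0.04, adjusted p = 0.437), and the co-cultures differed by 0.66 (SE 0.04, adjusted p = 6.87e-13).

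FGFR4 and FGFR3 were below 1.1 FPKM in every MRC5 library. FGFR4, a receptor better known from liver and muscle, was 0.59, 0.62 and 0.43 FPKM in MRC5_Mo, 0.55, 0.56 and 0.71 FPKM in MRC5_CoH69 and 1.04, 0.91 and 0.76 FPKM in MRC5_CoH196. Its libraries with H196 cells were the 3 highest, from 40 to 55 counts, and it rose by 0.90 on the log2 scale (SE 0.21, adjusted p = 0.000366). FGFR3, a receptor that restrains bone growth, was 0.36, 0.69 and 0.60 FPKM in MRC5_Mo, 0.43, 0.44 and 0.36 FPKM in MRC5_CoH69 and 0.71, 0.67 and 0.61 FPKM in MRC5_CoH196. The FPKM of MRC5_CoH196 and MRC5_Mo overlapped, and 1 MRC5_Mo library stood at the level of MRC5_CoH69. The log2 fold change of 0.45 (SE 0.20, adjusted p = 0.0479) was lost with DESeq2 (adjusted p = 0.114), with library totals (0.28, adjusted p = 0.217) and when any of 7 of the 9 libraries was left out (adjusted p = 0.0502 to 0.313), the exceptions being MRC5_Mo replicates 2 and 3. Against MRC5_CoH69 the difference in FGFR3 was 0.89 (SE 0.22, adjusted p = 0.000722) and in FGFR4 0.75 (SE 0.20, adjusted p = 0.00192).

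FGFRL1, a receptor that binds FGFs but has no kinase domain, was close to constant in MRC5 cells. It was 18.5, 20.6 and 21.2 FPKM in MRC5_Mo, 20.6, 20.3 and 19.1 FPKM in MRC5_CoH69 and 18.4, 18.5 and 18.7 FPKM in MRC5_CoH196. With TMM scaling the log2 fold change with H196 cells was 0.05 (SE 0.06, adjusted p = 0.399), and with library totals it turned to -0.12 and passed (adjusted p = 0.0442). With H69 cells it was 0.01 (SE 0.05, adjusted p = 0.963).

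**Figure D2:**
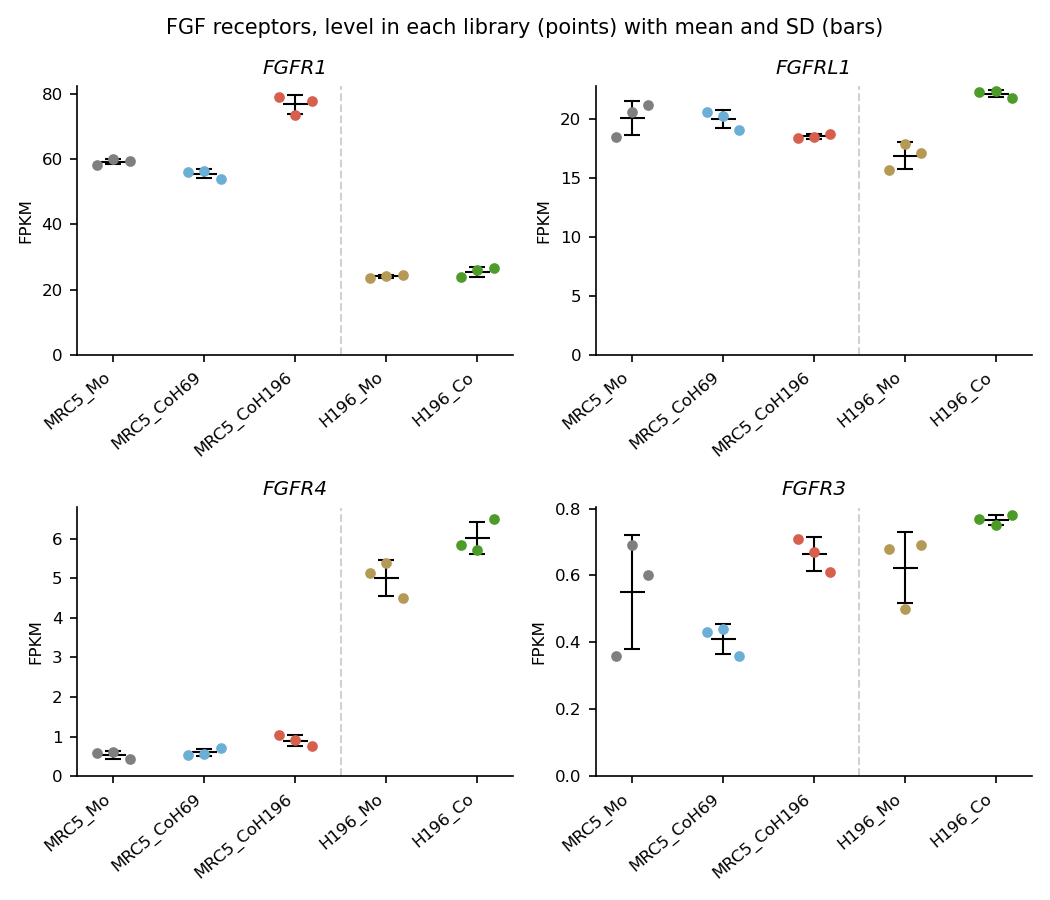
FPKM of the 4 receptor genes in each library (points, 3 per group) with the group mean and SD (black bars); each panel has its own linear axis from 0, and a dashed line parts MRC5 from H196 libraries. FGFR1 was highest in MRC5_CoH196 (73.6 to 78.9 FPKM), FGFRL1 rose in H196_Co (21.8 to 22.4 FPKM), and FGFR4 was 4.49 to 6.48 FPKM in H196 cells but at most 1.04 FPKM in MRC5 cells.

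Beside MRC5_Mo, the co-culture with H69 cells moved few members: FGF2 was higher, FGF5 was lower and 7 of 9 did not pass, and none was a DEG. Of all genes tested 6.7% passed in this comparison, 3.78% higher and 2.93% lower, and 0.554% were DEGs. Between the co-cultures, 5 members were higher with H196 cells and 2 lower, where 72.3% of all genes passed, 35.7% higher and 36.6% lower, and 28.2% were DEGs. The 3 MRC5 comparisons share libraries and are not independent of each other.

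In H196 cells grown with MRC5 cells, the members that rose were FGF11, FGFRL1 and FGFR4, and FGF5 fell. No member reached the limit for a DEG. Of the 9 members tested 3 rose, 1 fell and 5 did not pass, where 19.8% of 12806 genes passed, 12% higher and 7.78% lower, and 3.86% were DEGs. With library totals 2 members were higher and 1 lower, and over all genes 1024 were higher and 2067 lower, where TMM gave 1542 and 996. DESeq2 called 2 members, FGF11 and FGFRL1.

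FGFR1, the receptor gene with the highest FPKM in H196 cells, did not pass. It was 23.5, 24.2 and 24.4 FPKM in H196_Mo and 23.7, 26.1 and 26.7 FPKM in H196_Co, and the groups overlapped. The log2 fold change was 0.17 (SE 0.07, adjusted p = 0.0979), 0.09 with library totals (adjusted p = 0.352), and it passed only when H196_Co replicate 1 was left out (0.21, adjusted p = 0.0489). FGFR4 was 5.13, 5.39 and 4.49 FPKM in H196_Mo and 5.83, 5.72 and 6.48 FPKM in H196_Co. These groups did not overlap, and FGFR4 rose by 0.34 (SE 0.10, adjusted p = 0.0226). That call was lost with DESeq2 (adjusted p = 0.0534), with library totals (0.27, adjusted p = 0.0651), and without H196_Co replicate 3 (adjusted p = 0.125) or H196_Mo replicate 3 (adjusted p = 0.131).

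FGFRL1 gave the clearest change among the H196 receptors. It was 15.7, 17.9 and 17.2 FPKM in H196_Mo and 22.3, 22.4 and 21.8 FPKM in H196_Co, with every co-cultured library above every library grown alone. It rose by 1.38-fold (log2 fold change 0.47, SE 0.08, adjusted p = 0.000202), and by 0.39 with library totals (adjusted p = 0.00132). FGFR3 was 0.68, 0.50 and 0.69 FPKM in H196_Mo and 0.77, 0.75 and 0.78 FPKM in H196_Co. The FGFR3 groups did not overlap, from 35 to 53 counts, but the log2 fold change of 0.40 did not pass (SE 0.18, adjusted p = 0.129).

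Among the ligand genes of H196 cells, FGF11 was 19.2, 17.9 and 16.7 FPKM in H196_Mo and 25.5, 25.8 and 21.9 FPKM in H196_Co. It was higher in every co-cultured library and rose by 1.43-fold (log2 fold change 0.51, SE 0.08, adjusted p = 0.000123). FGF5 was 7.75, 7.07 and 7.03 FPKM in H196_Mo and 6.02, 6.03 and 5.54 FPKM in H196_Co. It fell by 0.24 on the log2 scale (SE 0.08, adjusted p = 0.0391), with no overlap of the groups, against its rise in MRC5 cells grown with H196 cells. The call in H196 cells was lost with DESeq2 (adjusted p = 0.053) and when any 1 of H196_Co replicate 3 and the 3 H196_Mo replicates was left out (adjusted p = 0.0694 to 0.156).

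The other ligand genes of H196 cells overlapped between groups and did not pass. FGF2 was 5.13, 3.76 and 3.94 FPKM in H196_Mo and 3.36, 3.85 and 3.61 FPKM in H196_Co (log2 fold change -0.17, SE 0.10, adjusted p = 0.251). FGF7 was 0.45, 0.50 and 0.28 FPKM in H196_Mo and 0.33, 0.22 and 0.27 FPKM in H196_Co (log2 fold change -0.48, SE 0.25, adjusted p = 0.193). FGF1 was 0.47, 0.22 and 0.19 FPKM in H196_Mo and 0.35, 0.47 and 0.36 FPKM in H196_Co, from 11 to 28 counts. Its highest H196_Mo library equalled the highest of H196_Co, and its log2 fold change of 0.55 (SE 0.31, adjusted p = 0.225) passed only without H196_Mo replicate 1 (1.04, adjusted p = 0.0407).

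**Figure D3:**
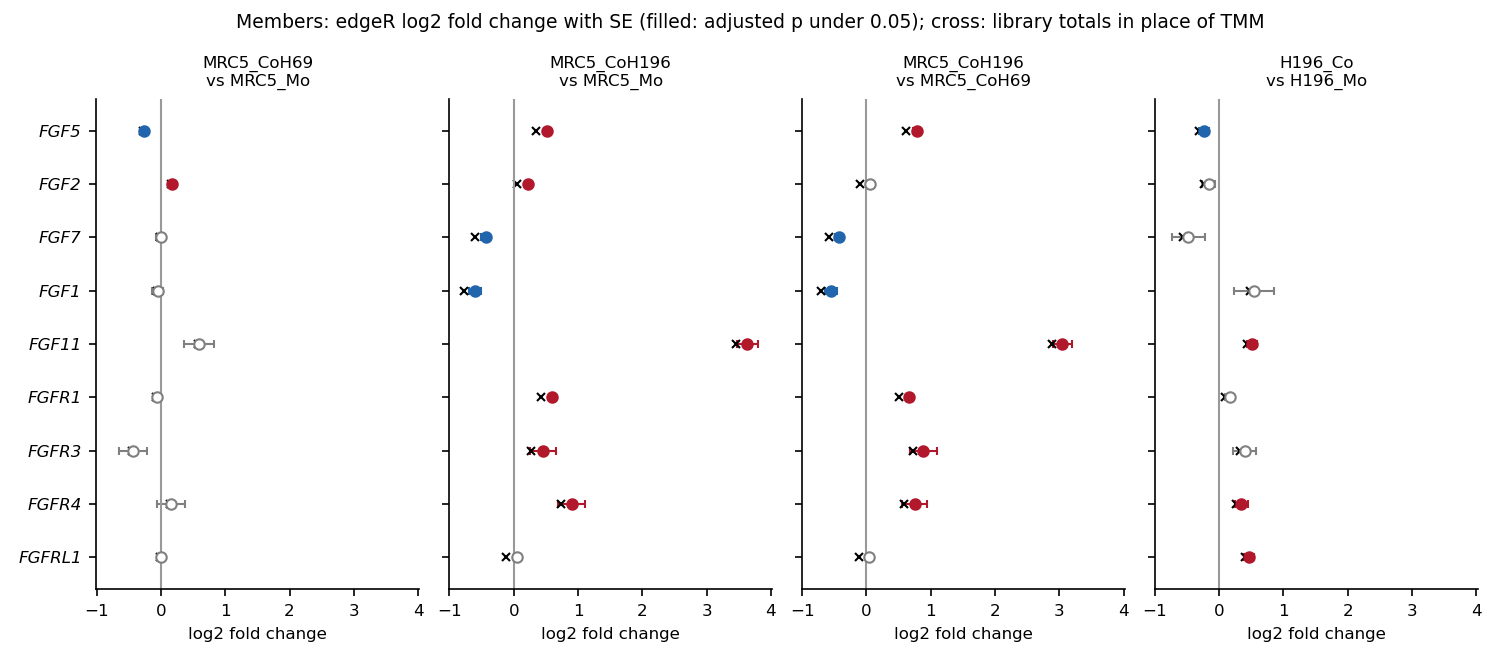
Log2 fold change of the 9 tested members (circles) with SE (bars) in 4 comparisons, first group against second; filled circles have an adjusted p under 0.05 in edgeR (red higher, blue lower), and crosses give the value with library totals in place of TMM. FGF11 stands at 3.63 in MRC5_CoH196 against MRC5_Mo, and the crosses for FGF2 (0.05), FGFR3 (0.28) and FGFRL1 (-0.12) show the 3 members whose call turns on the scaling in that panel.

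Setting the ligand genes of one partner beside the receptor genes of the other, the MRC5 side was led by FGF5 and the H196 side by FGFR1. FGF5 made up 61.5% ± 2.53 of the summed FPKM of the listed ligand genes in MRC5_Mo, 55.9% ± 1.6 in MRC5_CoH69 and 68.5% ± 0.836 in MRC5_CoH196 (SD, n = 3). In H196 cells FGFR1 made up 81.0% ± 1.14 of the summed FPKM of FGFR1 to FGFR4 when grown alone and 78.9% ± 0.966 with MRC5 cells (SD, n = 3). FGFR4 made up most of the remainder, with 16.8% ± 1.5 and 18.6% ± 0.945 (SD, n = 3). Thus FGF5 stood at 69.2 ± 3.36 FPKM in MRC5_CoH196 beside FGFR1 at 25.5 ± 1.57 FPKM in H196_Co (SD, n = 3). RNA was taken from the cells in the well, so these groups came from separate co-cultures with the lines in swapped places. The tables of both lines were normalized separately, and levels across them were not tested.

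FGFR2 was all but unread on both sides, with 0 to 5 counts and at most 0.08 FPKM in any library. FGF7, whose receptor is an FGFR2 form, was 9.60 ± 1.12 FPKM in MRC5_CoH196 (SD, n = 3). FGF2 at 14.2 ± 1.26 FPKM and FGF1 at 2.49 ± 0.193 FPKM (SD, n = 3) were the other ligand genes above 1 FPKM on the MRC5 side whose products bind FGFR1. FGF17 was at most 0.52 FPKM there. The receptor genes of H69 cells, the partner of MRC5_CoH69, were not measured.

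In the other direction, FGF11 made up 54.8% ± 0.844 of the summed ligand FPKM of H196_Mo and 66.3% ± 1.82 of H196_Co (SD, n = 3), followed by FGF5 with 22.3% ± 0.575 and 15.97% ± 0.407 (SD, n = 3). Without the intracellular FGFs, FGF11 to FGF14, the summed ligand FPKM was 12.9 ± 1.3 in H196_Mo and 10.8 ± 0.369 in H196_Co (SD, n = 3). FGF5 then made up 56.5% and 54.4% of it and FGF2 32.9% and 33.5%. The same sum was 88.1 ± 3.15 FPKM in MRC5_Mo, 79.6 ± 0.345 FPKM in MRC5_CoH69 and 96.3 ± 5.87 FPKM in MRC5_CoH196 (SD, n = 3). On the MRC5 side FGFR1 made up 98.2% of FGFR1 to FGFR4 in MRC5_Mo and in MRC5_CoH69 and 98.0% in MRC5_CoH196. Side by side, both this sum and FGFR1 were at higher FPKM in each MRC5 library than in any H196 library.

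**Figure D4:**
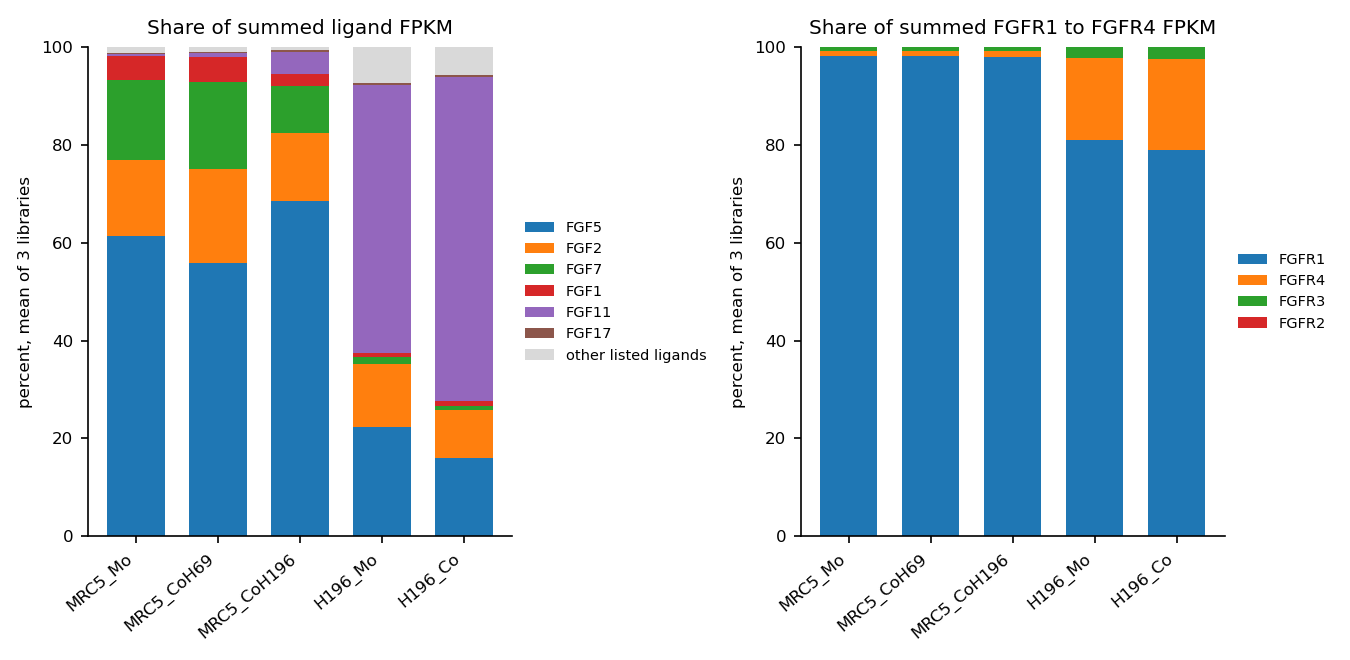
Stacked bars of the mean share (percent of FPKM, 3 libraries per group) of each ligand gene in the listed FGF ligands (left) and of each receptor gene in FGFR1 to FGFR4 (right), for the 5 groups. FGF5 fills most of the MRC5 bars (55.9% to 68.5%), FGF11 most of the H196 bars (54.8% and 66.3%), and FGFR1 leads the receptors in all groups.

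Other FGF genes were scarce. Of 17 further FGF genes, FGFR2 among them, 10 were in the MRC5 table and 2 passed the count filter. FGF13, an intracellular FGF, fell by 0.86 in MRC5_CoH196 against MRC5_Mo (SE 0.32, adjusted p = 0.0197) from 0.407 ± 0.0404 to 0.190 ± 0.0624 FPKM (SD, n = 3), on 5 to 20 counts. FGF9 had a log2 fold change of -0.59 that did not pass against MRC5_Mo (adjusted p = 0.052) and fell by 0.66 against MRC5_CoH69 (adjusted p = 0.0289), and DESeq2 called neither gene in either comparison. In H196 cells only FGF12 was tested, at 1.84 ± 0.0987 and 1.56 ± 0.250 FPKM (SD, n = 3), and did not pass (log2 fold change -0.16, adjusted p = 0.369).

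Of 11 co-receptors and FGF-binding proteins, 6 were tested in MRC5 cells, and with H196 cells 2 rose and 3 fell, where 74.3% of all genes passed. FLRT1 and FLRT2, membrane proteins that bind FGF receptors, rose by 1.26 (SE 0.24, adjusted p = 4.29e-05) and 0.29 (SE 0.06, adjusted p = 5.23e-05), while FLRT3 of the same family fell by 1.55 (SE 0.14, adjusted p = 3.26e-10). FLRT3 went from 1.73 ± 0.130 to 0.513 ± 0.112 FPKM (SD, n = 3). FGFBP3, a carrier that frees FGFs from the matrix, fell by 1.5 (SE 0.38, adjusted p = 0.00115), and ANOS1 fell by 0.83 (SE 0.35, adjusted p = 0.0348), both from under 20 counts a library. FLRT2 did not pass with library totals (0.12, adjusted p = 0.0627). With H69 cells edgeR called 0 of the 6, where 6.7% of all genes passed, and 3 had an unadjusted p under 0.05. In H196 cells it called 0 of the 2 tested, where 19.8% of all genes passed, and 0 had an unadjusted p under 0.05. DESeq2 called 0 in both cases. The share of all genes with an unadjusted p under 0.05 was not taken, so these counts have no background to be read against. The hormone co-receptors KL and KLB were at most 0.03 FPKM where listed.

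Of 21 genes that relay the signal from receptor to ERK, 14 rose and 3 fell in MRC5_CoH196 against MRC5_Mo, with a median log2 fold change of 0.31. The share that passed was near the 74.3% of all genes that did so, 37.2% higher and 37.1% lower. With library totals 10 were higher and 5 lower, with a median of 0.14, where the median of all genes was -0.18. The DEGs were the adaptor GAB1 (1.11, SE 0.09, adjusted p = 2.31e-11), the MEK gene MAP2K1 (1.04, SE 0.05, adjusted p = 6.44e-16), the ubiquitin ligase CBL (0.72, SE 0.05, adjusted p = 3.63e-13) and the RAS activator SOS1 (0.58, SE 0.05, adjusted p = 2.57e-10), which rose, and NRAS, which fell by 0.61 (SE 0.05, adjusted p = 6.86e-11). With H69 cells edgeR called 0 of 21, where 6.7% of all genes passed, and DESeq2 called 1. An unadjusted p under 0.05 was found for 6, and the share of all genes with such a p was not taken. In H196_Co 3 of 21 rose and 1 fell, where 19.8% of all genes passed, 12% higher and 7.78% lower, and no gene was a DEG. With library totals 1 was higher and 8 were lower, with a median of -0.21. Under that scaling the median of all genes was -0.08, and more of all genes were lower than higher.

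Among 16 genes that ERK switches on or that damp the pathway, 10 rose and 1 fell in MRC5_CoH196 against MRC5_Mo, with the same counts under library totals. Of all genes 74.3% passed there, 37.2% higher and 37.1% lower, so the share of the list that passed in either direction was near the background. A larger share of the list than of all genes was higher and a smaller share lower, which was not tested. The difference between the lines was not tested. The largest rises were of SPRY1 (1.97, SE 0.17, adjusted p = 9.59e-11), a Sprouty inhibitor, and of the ERK phosphatase genes DUSP5 (1.47, SE 0.08, adjusted p = 7.44e-15), DUSP4 (1.20, SE 0.18, adjusted p = 2.59e-06) and DUSP6 (0.69, SE 0.05, adjusted p = 6.1e-12), and SPRED1, another inhibitor, rose by 0.73. The ETS factor genes ETV5 (0.52) and ETV4 (0.37) and SPRY4 (0.42) rose below the limit for a DEG, and SPRY2 had a log2 fold change of 0.05 (adjusted p = 0.434). Between the co-cultures 13 of 16 were higher with H196 cells and none lower, where 72.3% of all genes passed, 35.7% higher and 36.6% lower. With library totals 12 were higher and 1 lower.

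With H69 cells, where 6.7% of all genes passed, 2 of the 16 fell, SPRY2 by 0.53 (adjusted p = 5.15e-06) and DUSP5 by 0.33 (adjusted p = 0.0213). In H196_Co 3 of the 15 tested rose and 2 fell, where 19.8% of all genes passed, 12% higher and 7.78% lower. DUSP5 (0.74, SE 0.08, adjusted p = 9.06e-07) and the AP-1 gene FOSL1 (0.65, SE 0.07, adjusted p = 9.13e-07) were DEGs, PHLDA1 rose by 0.29, and ETV1 and CCND1, the cyclin D1 gene, fell by 0.29 and 0.26. The log2 fold changes of DUSP6 (-0.08), SPRY2 (0.05), SPRY4 (0.01), ETV4 (0.14) and ETV5 (-0.06) in H196_Co did not pass. The medians of this list were 0.41 in MRC5_CoH196 and 0.01 in H196_Co, against their controls.

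**Figure D5:**
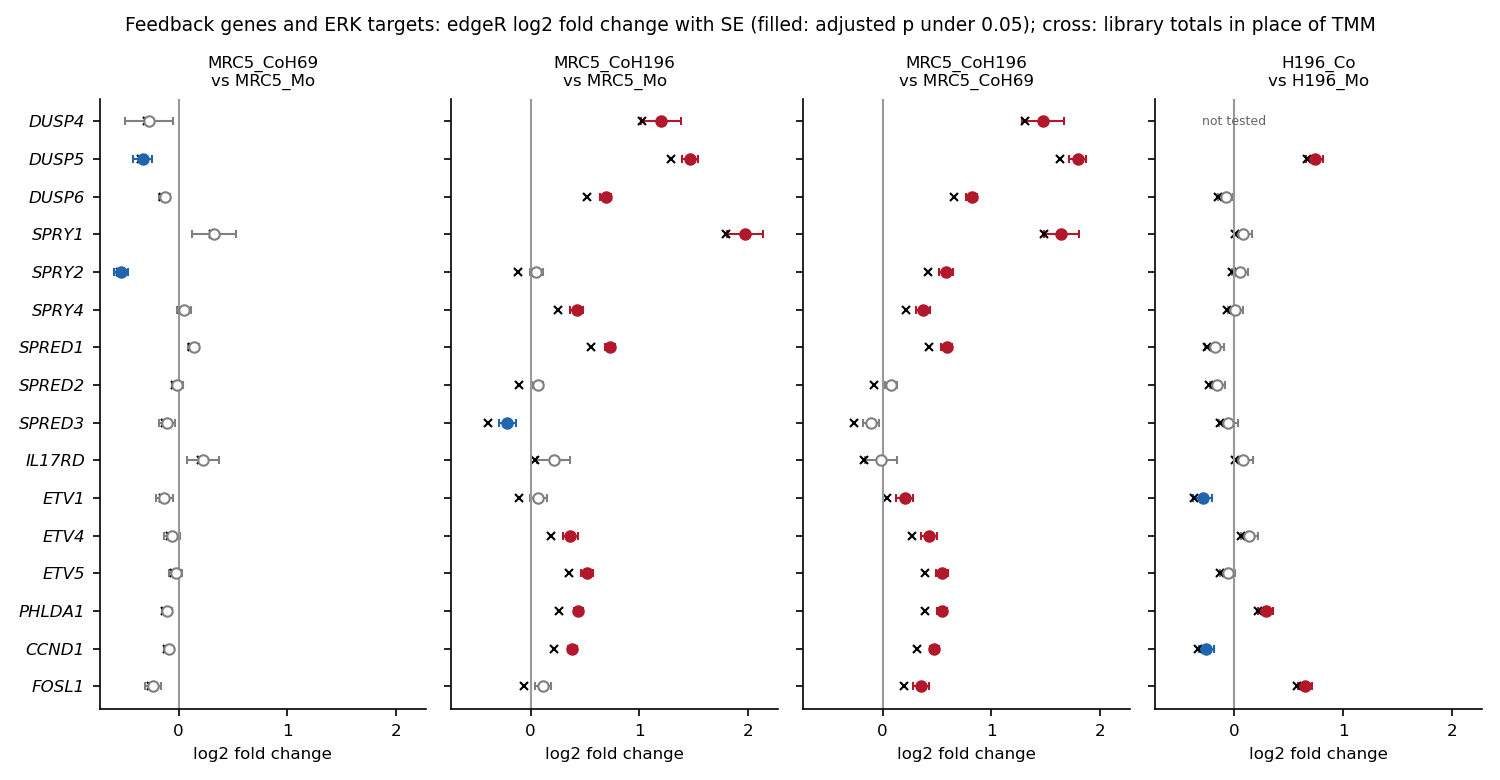
Log2 fold change of 16 feedback genes and ERK targets (circles) with SE (bars) in 4 comparisons, first group against second; filled circles have an adjusted p under 0.05 in edgeR (red higher, blue lower), and crosses give the value with library totals in place of TMM. SPRY1 (1.97), DUSP5 (1.47) and DUSP4 (1.20) stand farthest right in MRC5_CoH196 against MRC5_Mo, and in H196_Co DUSP5 (0.74) and FOSL1 (0.65) do.

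The rise of FGF5 and FGFR1 in MRC5_CoH196 came with other changes of the fibroblasts, whose part in it was not tested. The summed fibroblast markers were 5229 to 5817 FPKM in MRC5_Mo, 6010 to 6201 FPKM in MRC5_CoH69 and 2638 to 2782 FPKM in MRC5_CoH196. The collagen genes COL1A1 and COL3A1 fell by 1.57 and 2.09 on the log2 scale. COL1A2 went from 1974 ± 137 FPKM in MRC5_Mo to 1191 ± 36.8 FPKM in MRC5_CoH196 (SD, n = 3). Between the same groups mean FPKM went from 2628 to 785 for COL1A1 and from 260 to 54.0 for COL3A1. These collagen genes made up most of the marker sum, so its fall does not stand for the other markers. Mean FPKM went up from 60.7 to 85.5 for PDGFRB, from 80.1 to 95.0 for FBLN1 and from 42.6 to 48.9 for PDGFRA. For THY1 it went down from 154 to 131. Of the 10 markers 6 rose, 1 of them as a DEG, and 3 fell, where 37.2% of all genes were higher and 37.1% lower. With library totals 4 were higher and 4 lower. Of the 6 epithelial markers 4 were tested, and 3 rose as DEGs, where 74.3% of all genes passed and 31.9% were DEGs. KRT19 rose by 0.99, from 18.97 to 20.96 FPKM in MRC5_Mo to 31.72 to 37.65 FPKM in MRC5_CoH196, KRT8 rose by 0.83 and KRT7 by 1.43, while KRT18 fell by 0.25. The epithelial list summed to 107 to 113 FPKM in MRC5_Mo, 130 to 145 FPKM in MRC5_CoH69 and 110 to 117 FPKM in MRC5_CoH196. The NE marker list summed to 0.34 to 0.59 FPKM in MRC5_CoH196 and 0.46 to 0.73 FPKM in MRC5_Mo. In bulk RNA a change in all cells and a change in some of the cells cannot be told apart.

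As a description of which genes followed the leading ligand and receptor, the 9221 genes of at least 10 CPM on average were ranked by Pearson r of log2 CPM with FGF5 over the 9 MRC5 libraries. HMGA2, a chromatin protein gene, was nearest with r = 0.998, followed by the calcium pump gene ATP2B4 with r = 0.997 and LRRC15, a CAF marker, with r = 0.993. For FGFR1 over the 6 H196 libraries and 9834 genes, they were HSPG2 (perlecan, a heparan sulfate proteoglycan of the matrix) with r = 0.991, the myosin gene MYH9 with r = 0.990 and FAM222B with r = 0.989. The points are 3 libraries of each group, so groups that differ in level raise r.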

How the data were processed

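RNA of MRC5 and H196 cells was enriched with oligo(dT) and sequenced on a BGI platform. According to the methods and the submitters' processing notes, the authors filtered reads with SOAPnuke, aligned them with HISAT (HISAT2 2.1.0) to GRCh38.p13, aligned them to gene sequences with Bowtie2 (2.3.4.3) and estimated expected counts and FPKM per gene with RSEM (1.3.1). The deposited expected counts (estimated counts, not normalized) were rounded to whole numbers, and the deposited FPKM were used as levels. FPKM has no replicate scaling beyond the library total. Another 30 per-library columns (TPM and counts normalized by the authors) and the authors' own fold changes, p-values and q-values were not used.

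Counts were tested in R 4.3.3 with edgeR 4.0.16 (TMM, filterByExpr, quasi-likelihood F test, Benjamini-Hochberg adjustment over all genes), with the 9 MRC5 libraries in one model and the 6 H196 libraries in another, and 12819 and 12806 genes passed the filter. Alternatives were DESeq2 1.42.0, limma 3.58.1 on log2(FPKM + pseudocount), other filters and scalings, a replicate block and leaving out each library. Scaling by library totals alone and the fold change limit of 0.58 were added after seeing the data. The scripts were tested on simulated counts. Counting intervals cover counting error only. Text names the 10 members, DEGs of 4 pathway lists (at most 6 per list and comparison), FGFR2, DUSP6, SPRY2, SPRY4, ETV4 and ETV5, cell type markers and the 3 genes likest to FGF5 and to FGFR1. FGF12, FLRT2, KL, KLB, ETV1, CCND1 and PHLDA1 were added after their values were seen. The members and lists were chosen with earlier results of these data known. The strandedness of the counting was not given in the sources used here, and reads of a gene and an antisense partner may not be told apart.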

Additional observations from a re-analysis of the deposited data

Results flagged for a closer look

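For 7 of the 9 members tested the response of MRC5 cells to H196 cells differed from the response to H69 cells. This is by the edgeR test of MRC5_CoH196 against MRC5_CoH69, where 72.3% of all genes passed, so the share of members was near the background. The log2 difference was 3.04 for FGF11, 0.89 for FGFR3, 0.78 for FGF5, 0.75 for FGFR4, 0.66 for FGFR1, -0.43 for FGF7 and -0.55 for FGF1. FGF5 also moved in opposite ways in the partners: every MRC5_CoH196 library was above every MRC5_Mo library, while every H196_Co library was below every H196_Mo library (log2 fold change -0.24). The lines stand in separate tables, and that difference was not tested.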

How the results depend on the processing

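Of 315 member fold changes recomputed under alternatives other than leaving out a library, 295 kept their direction and their side of the threshold, 18 lost and 1 gained the call, and FGFRL1 in MRC5_CoH196 against MRC5_Mo reversed to -0.12 with library totals. Of 297 with a library left out, 276 kept both, 19 lost and 2 gained the call. With an absolute log2 fold change above 0.58 or above 1, genes called went to 4092 and 1564 for MRC5_CoH196 against MRC5_Mo, 71 and 9 for MRC5_CoH69 against MRC5_Mo, 3618 and 1353 between the co-cultures and 494 and 147 in H196 cells, by the limit itself. Members called went to 4 and 1 with H196 cells, 1 above 1 between the co-cultures, and 0 at either limit with H69 cells and in H196_Co. In those last 2 comparisons edgeR called 2 and 4 on the adjusted p alone, and 3 and 6 had an unadjusted p under 0.05. The share of all genes with such an unadjusted p was not taken.

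For MRC5_CoH69 against MRC5_Mo, limma on log2(FPKM + 1) called 404 genes and on log2(FPKM + 0.1) 386, where edgeR called 859, and 1 pathway gene each, while other count filters gave 4. Members called were 1 with library totals, DESeq2 and log2(FPKM + 1). In H196 cells DESeq2 called 2 members, and library totals 15 pathway genes, against 9. The share of FGF5 without the intracellular FGFs was 71.9% in MRC5_CoH196, 56.5% in H196_Mo and 54.4% in H196_Co. The cause was not tested.

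Leaving out 1 library gave 9089 to 9610 genes, 7 to 9 members and 32 to 34 pathway genes for MRC5_CoH196 against MRC5_Mo, 8759 to 9346, 7 to 8 and 30 to 35 between the co-cultures, 384 to 1015, 1 to 2 and 1 to 4 for MRC5_CoH69, and 1559 to 2723, 2 to 5 and 6 to 15 in H196 cells. The counts of genes moved by over 1.5 times without MRC5_CoH69 replicate 1 (495) or 2 (561), MRC5_Mo replicate 2 (406) or 3 (384), and H196_Co replicate 3 (1559) or H196_Mo replicate 3 (1656).

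Same-numbered libraries did not deviate together over all genes tested (r of deviations from -0.116 to 0.081 in MRC5 and -0.151 to 0.0334 in H196). A shared batch that touched only some genes would not show in such an r, and what the numbers stand for was not stated. With the number as a replicate block 9412, 769, 9166 and 2076 genes were called in the 4 comparisons, in the order above with MRC5_CoH69 against MRC5_Mo second, and of the members only FGF5 in H196 cells lost its call (adjusted p = 0.0637). Depth limits FGF17 and FGFR3 in both lines, FGF11 in MRC5_Mo and MRC5_CoH69, FGFR4 in MRC5 cells, and FGF1 and FGF7 in H196 cells. Each was read from under 60 counts a library.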
